A study of Homo sapiens with 32 samples.

Results

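Transcript levels of the semaphorin, plexin, neuropilin, ephrin, Eph receptor, SLIT, ROBO, netrin and UNC5 genes were examined in MCF10A cells, a human mammary epithelial line that does not form tumours, treated with TGFβ1. These genes were chosen by name, as the protein-coding genes of the counts table whose GENCODE symbols belong to these families. The rule found 65 of 17788 genes in the table, out of 68 that match it in the annotation, and EPHA7, SEMA3D and SLIT1 had no row. Of the 65 genes, 61 passed the low-count filter and were tested, and EPHA8, EPHB1, NTN3 and NTN5 were not, with a group mean of at most 0.118 CPM (counts of a gene per 1000000 counts of its library). A mean of at least 1 CPM in some group was reached by 49 genes, and 13 reached 100 CPM.

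The study compared cells with wild-type JUNB (WT, clones 27 and 2) and cells whose JUNB gene had been edited with CRISPR/Cas9 (mut, clones 1 and 65). JUNB is a subunit of the transcription factor AP-1, and the mut clones carried an extended deletion which left a shortened JUNB polypeptide. The labels call these clones knock-out. Cells received solvent or 5 ng/ml TGFβ1 for 6, 24 or 72 h, and each of the 8 groups held 4 RNA sequencing libraries, from 2 clones with 2 replications each. The labels give the solvent libraries the time 0, while the study describes control cells kept in solvent for 72 h and one common day of harvest for every culture. Each clone grew from a single cell, and what differs between genotypes cannot be told apart from what differs between 2 clones and 2 others. The p-values measure the spread between these libraries. Libraries are named here by clone and replication, and the libraries of one clone and replication, such as 27-2, are called a series. Values of a group are given in the order 2-1, 2-2, 27-1, 27-2 for WT and 1-1, 1-2, 65-1, 65-2 for mut.

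Guidance genes encode ligands and receptors that tell growing axons and migrating cells where to go. Semaphorins signal through plexins, which act on small GTPases and the cytoskeleton, and the secreted class 3 semaphorins mostly need a neuropilin as the binding subunit. Ephrins are held at the cell surface and meet Eph receptor tyrosine kinases on the neighbouring cell, with signals in both directions. SLIT proteins are secreted ligands of ROBO receptors, and netrins attract or repel cells through DCC, neogenin or UNC5 receptors. In epithelia such as the mammary gland these families are known for roles in cell sorting, adhesion, duct formation and migration.

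Library totals lay between 39702412 and 54651906 counts. A count of 3, taken as the floor, corresponds to at most 0.0756 CPM. The series 27-2 stood apart on the third principal component of all tested genes, with scores of -56.3 to -44.0 against -17.0 to 37.0 in the other libraries. The library mut solvent 1-2 had a first component score of -39.4 against -65.7 to -61.8 in the other mut solvent libraries, and mut 6 h 1-2 had -58.6 against -46.9 to -42.0. Each of these libraries lay towards the group of the other, and whether their labels were exchanged was not tested. They were kept as labelled, and results that rest on the series 27-2 or 1-2 are given with and without it. JUNB transcripts had 89.7 to 117 CPM in WT solvent libraries. The mut clones lay on either side of this range in solvent. Clone 1 had 69.2 and 77.5 CPM, below every WT library, and clone 65 had 128 and 172 CPM, above every WT library. A count over the gene does not show the deletion. MCF10A markers spanned a wide range, with KRT5 between 3262 and 8158 CPM, KRT14 between 181 and 2189 CPM and CDH1 between 147 and 599 CPM. TP63 had between 64.7 and 152 CPM and EPCAM between 9.23 and 82.7 CPM. The highest library held 0.140 CPM of VWF (endothelial cells), 0.0498 CPM of PTPRC (blood cells), 0.0482 CPM of SOX10 (glia) and 0.0932 CPM of THY1 (fibroblasts). Other genes of the same marker lists were expressed, with TEK (endothelial list) between 0.521 and 4.85 CPM, CD14 between 2.29 and 28.1 and CD68 between 5.64 and 24.4 CPM (blood cell list), TUBB3 (neural list) between 71.1 and 348 CPM, and PDGFRA between 0.0846 and 1.51, DCN between 4.34 and 33.5 and COL1A1 between 3.16 and 73.4 CPM (fibroblast list). Transcript abundance in bulk libraries does not separate fewer expressing cells from less RNA per cell.

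Per length, the receptors EPHA2 and PLXNB2 and the ligand EFNB1 led the families in WT solvent cells. On the scale of reads per kilobase of exon, scaled as CPM (RPKM), the level of EPHA2, a receptor for ephrin-A ligands, was 79.5 ± 5.95 (SD, n = 4). The level of PLXNB2, a receptor for class 4 semaphorins, was 46.9 ± 3.12 RPKM, and that of EFNB1, a membrane-spanning ephrin, was 43.2 ± 2.08 RPKM. The intervals of 1 SD of PLXNB2 and EFNB1 overlapped, and EPHA2 stood clear of both. SEMA3F at 31.8 ± 8.38, EFNB2 at 30.5 ± 4.01, EPHB4 at 28.4 ± 1.803, PLXNA1 at 25.8 ± 1.02 and PLXNB1 at 23.8 ± 3.701 RPKM followed, and the 1 SD intervals of neighbours in this order overlapped. The receptor ROBO1 had 5.12 ± 0.139 RPKM and the netrin receptor UNC5B 9.03 ± 2.98 RPKM. EPHA2, PLXNA1 and SEMA3F passed the test in none of the 13 comparisons, and EPHB4 passed it in 1 (mut against WT at 72 h, 0.26 ± 0.05). Exons of EPHB4 overlap SLC12A9.

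Promoter sequences were read for the genes whose values the results turn on. RefSeq windows of 250 bases before a start (GRCh38.p14) were found for 55 of the 65 genes, with 85 windows. The stretches shown end at or shortly before the RefSeq start, overlap no annotated exon and run 5′ to 3′ on the strand of the gene. SEMA7A, EFNA1, EPHB2 and SEMA3C are shown as the genes with large or differing changes after TGFβ1, and SEMA3B and SEMA3G as a pair with opposite genotype differences. The stretch of SEMA3B belongs to the start furthest upstream of its 5 RefSeq starts, before the GENCODE span of the gene (chromosome 3, 50267558 to 50277546). Capitals mark a motif match. For EPHB2 and SEMA3B the window shown was chosen because it holds the marked motif.
SEMA7A (chr15:74433959-74434078, minus strand): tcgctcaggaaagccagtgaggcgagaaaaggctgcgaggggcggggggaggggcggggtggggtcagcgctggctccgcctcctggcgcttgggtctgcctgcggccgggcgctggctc
EFNA1 (chr1:155127756-155127875, plus strand): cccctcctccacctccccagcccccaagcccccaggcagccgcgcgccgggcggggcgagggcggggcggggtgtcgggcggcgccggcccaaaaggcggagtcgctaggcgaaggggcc
EPHB2 (chr1:22710716-22710835, plus strand): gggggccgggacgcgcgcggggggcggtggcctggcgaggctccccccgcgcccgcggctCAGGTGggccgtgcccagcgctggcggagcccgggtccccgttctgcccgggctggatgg
SEMA3C (chr7:80922390-80922509, minus strand): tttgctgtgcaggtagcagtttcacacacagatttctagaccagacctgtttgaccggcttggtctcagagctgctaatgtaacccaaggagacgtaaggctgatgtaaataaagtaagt
SEMA3B (chr3:50260106-50260225, plus strand): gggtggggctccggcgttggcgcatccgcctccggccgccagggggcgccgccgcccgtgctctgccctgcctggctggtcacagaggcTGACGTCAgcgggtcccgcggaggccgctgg
SEMA3G (chr3:52445150-52445269, minus strand): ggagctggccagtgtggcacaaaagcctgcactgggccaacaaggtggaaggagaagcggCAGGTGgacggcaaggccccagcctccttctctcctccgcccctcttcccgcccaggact

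Motifs were searched on both strands of the 250 bases, and no motif contains another, though neighbouring matches may share letters. The AP-1 site, written TGACTCA or TGAGTCA, was in 0 of the 85 guidance gene windows and in 4.2% of all 35116 windows. The cyclic AMP response element TGACGTCA was in 3 guidance gene windows, of EPHA2, SEMA3B and SEMA4C, and in 1.65% of all windows. The palindromic SMAD element GTCTAGAC was in 0 and in 0.182% of all windows. The E-box CACCTG, or CAGGTG on the other strand, was in 14 guidance gene windows of 12 genes, and in 17.5% of all windows. EPHB2, SEMA3B and SEMA3G were among these genes, SEMA3B with a window other than the one shown. The match in EPHB2 lay 62 bases and that in SEMA3G 106 bases before the start, and the response element of SEMA3B lay 31 bases before it. These matches describe the letters only.

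The first question was which guidance genes changed after TGFβ1 in WT cells. A gene is called where the Benjamini-Hochberg adjusted p of the limma-voom test, over 14865 genes, was under 0.05, and fold changes are log2 differences ± SE. At 72 h 32 of 61 guidance genes were called, 19 higher and 13 lower, which is 52.5% against 52.2% of all tested genes. By direction, 31.1% of the guidance genes were called higher against 13.9% of all genes, and 21.3% lower against 38.4%. At 24 h 31 were called, 19 higher and 12 lower, against a background of 52.1%, 14.1% and 38.0%, and at 6 h 10 were called, 7 higher and 3 lower, against 17.0%, 5.13% and 11.9%. The share of calls was close to that of all genes, and the split by direction moved with the scaling, in all genes too. With trimmed mean of M-values (TMM) factors 8 were higher and 1 lower at 6 h (13.1% and 1.64%, background 7.01% and 6.18%). At 24 h the counts were 26 and 8 (42.6% and 13.1%, background 23.5% and 23.2%), and at 72 h 22 and 7 (36.1% and 11.5%, background 21.5% and 23.3%). With either scaling the share called higher was above that of all genes, and the share called lower was below it. TMM factors moved the median of all genes from -0.18 to 0.00 at 24 h and from -0.19 to -0.03 at 72 h, and that of the interaction at 72 h from 0.10 to 0.02. Marker lists of other cell types moved at the same time. The summed level of 7 fibroblast markers in the table went from 15.3 to 22.1 CPM in WT solvent libraries to 39.0 to 60.1 CPM at 72 h, and in mut from 15.3 to 25.01 CPM to 43.1 to 53.2 CPM, with COL1A1 and DCN the highest and with COL1A2, COL3A1, PDGFRB and THY1 under 1 CPM in every library. The sum of 7 neural and Schwann cell markers went from 71.2 to 204.5 CPM in WT solvent to 229 to 317 CPM at 72 h, and in mut from 88.1 to 110.03 CPM to 91.95 to 122.9 CPM, with TUBB3, a tubulin, above 1 CPM and the other 6 under it in every library. With the series as a replicate block, which compares each series with its own solvent library, the 6 h count was 19 (background 25.9%).

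**Figure D1:**
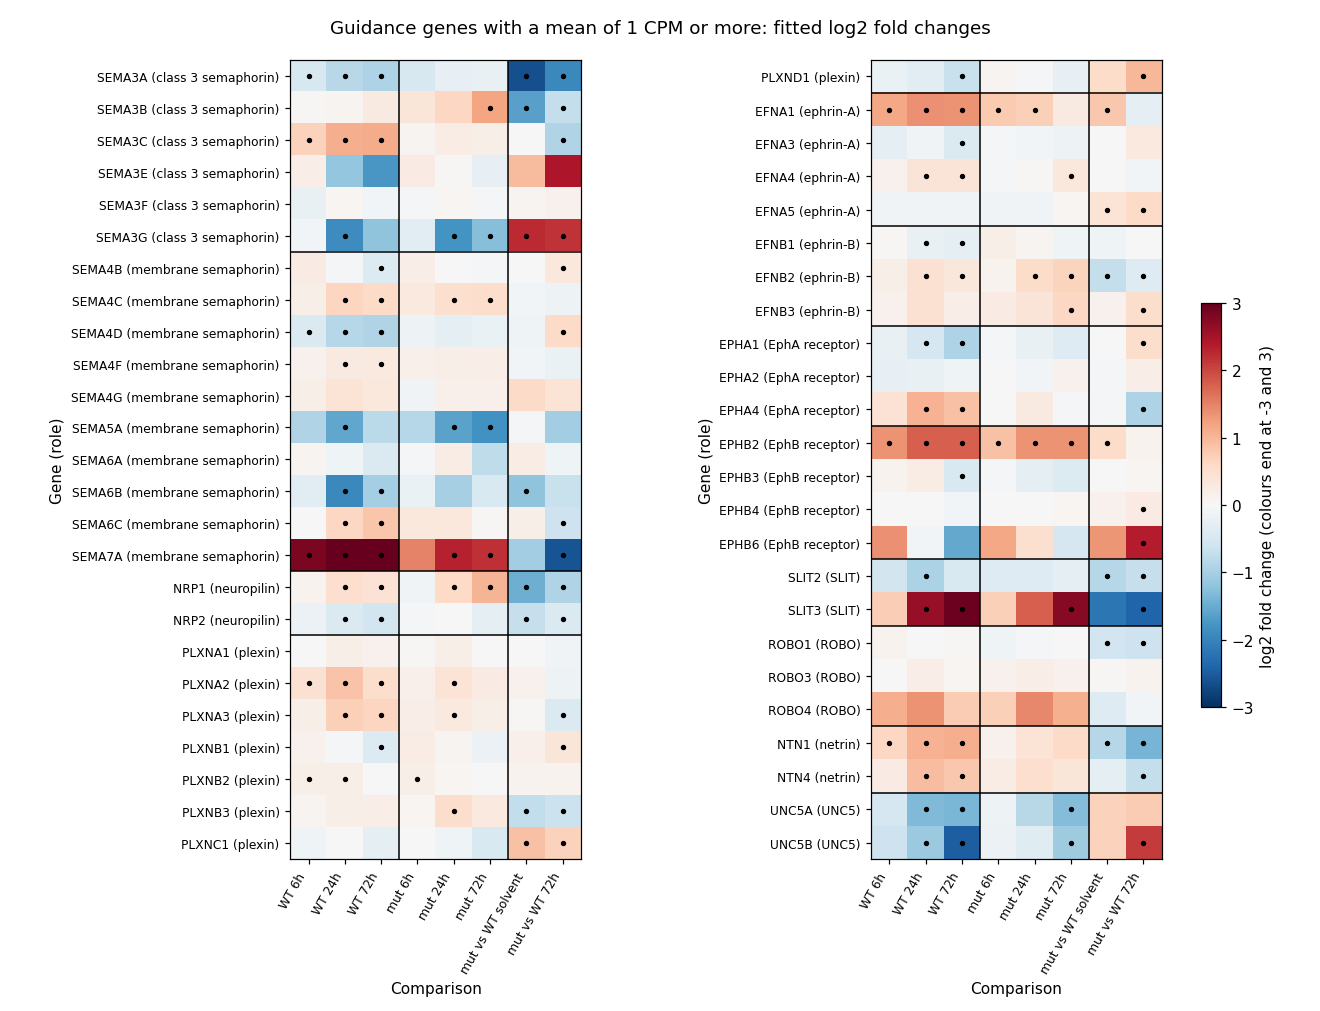
Fitted log2 fold changes (colour, ends at -3 and 3) of the 49 guidance genes with a mean of at least 1 CPM in some group, in rows by role, for TGFβ1 against solvent in WT and mut cells and for mut against WT in columns. Dots mark calls of the limma-voom test at adjusted p under 0.05. SEMA7A, SLIT3, EPHB2 and EFNA1 were the deepest red in WT cells at 72 h, and UNC5B was the deepest blue among the dotted cells of that column.

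The largest called rise in WT cells at 72 h was that of a semaphorin. SEMA7A (ENSG00000138623, GRCh38 chromosome 15, 74409289 to 74433958) encodes a membrane-anchored semaphorin that binds plexin C1 and integrins. It had 3.896, 1.59, 6.397 and 12.8 CPM in WT solvent and 57.4, 57.1, 64.1 and 75.8 CPM at 72 h. In mut cells it had 1.46, 8.51, 1.73 and 1.45 CPM in solvent and 10.1, 13.98, 9.64 and 8.78 CPM at 72 h. Every WT library at 72 h lay above every WT solvent library, and every mut library at 72 h lay above its own solvent library and below every WT library at 72 h. The mut solvent library 1-2 stood above the other 3, close to the level of the treated mut libraries. The change at 72 h was 3.72 ± 0.39 in WT (adjusted p = 8.65e-09) and 2.19 ± 0.52 in mut (adjusted p = 0.00257), or 2.62 without the series 1-2. At 6 h the change was 2.82 ± 0.40 in WT (adjusted p = 1.21e-05). The difference between the 72 h changes, the interaction, was -1.53 ± 0.65 (adjusted p = 0.121) and was not called; its adjusted p was 0.0216 without the series 27-2, 0.367 without 1-2 and 0.0553 with the replicate block.

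SEMA3C (ENSG00000075223, chromosome 7, 80742538 to 80922359), a secreted semaphorin, rose in WT cells, and its change differed between the genotypes at both later times. It had 105, 106, 119 and 139.5 CPM in WT solvent, 277, 241, 241 and 242 CPM at 24 h and 241, 262, 230.2 and 271 CPM at 72 h. In mut cells the corresponding values were 114, 145, 99.9 and 119 CPM, 139, 132, 131 and 148 CPM and 138, 164, 129 and 111 CPM. WT libraries at 24 and 72 h lay above every other library shown, while the 3 mut groups overlapped. The change was 1.10 ± 0.12 and 1.10 ± 0.12 in WT at 24 and 72 h (adjusted p = 9.4e-09 and 1.01e-08), and 0.21 ± 0.12 and 0.18 ± 0.12 in mut (adjusted p = 0.192 and 0.274). The interaction was -0.88 ± 0.16 at 24 h (adjusted p = 0.00137) and -0.92 ± 0.16 at 72 h (adjusted p = 0.000649), and it was called in every refit, with the 2 replications of each clone summed as well, while its size did not reach a minimum absolute log2 change of 1 (adjusted p with clone sums = 0.0463 and 0.0273).

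SEMA4D, a transmembrane ligand of plexin B1, fell in WT cells. It had 15.9, 16.9, 14.6 and 13.1 CPM in WT solvent and 9.49, 6.56, 9.21 and 7.56 CPM at 72 h, without overlap. The mut libraries overlapped, with 16.4, 12.6, 14.2 and 12.3 CPM in solvent and 13.6, 10.7, 13.6 and 10.8 CPM at 72 h. The change was -0.89 ± 0.15 in WT (adjusted p = 1.98e-05) and -0.19 ± 0.14 in mut (adjusted p = 0.343), and the interaction was 0.70 ± 0.21 (adjusted p = 0.0247). This interaction was lost with clone sums (adjusted p = 0.0782), in the edgeR quasi-likelihood test and without WT solvent 2-2, WT 72 h 2-2, mut solvent 65-2, mut 72 h 1-1 or mut 72 h 65-1, where the value lay between 0.61 and 0.65 (adjusted p up to 0.0729). At 24 h the interaction was 0.57 ± 0.21 (adjusted p = 0.0825, 0.027 with the replicate block).

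The other semaphorins moved in both directions. Among the 13 membrane semaphorins tested, 4 rose and 3 fell in WT cells at 72 h (53.8%, against 52.2% of all genes), and 2 rose and 1 fell in mut cells (23.1%, against 24.1%). SEMA4C, a transmembrane ligand of plexin B2, rose in both genotypes, from 22.6 ± 0.9395 to 33.7 ± 2.51 CPM in WT and from 21.2 ± 1.499 to 30.4 ± 2.36 CPM in mut (SD, n = 4), which is 0.58 ± 0.10 (limma-voom adjusted p = 1.12e-05) and 0.52 ± 0.10 (adjusted p = 0.000178). SEMA4B, a further class 4 member, had 74.6 to 119.7 CPM in WT solvent and 70.7 to 82.5 CPM at 72 h, and fell, with a log2 change of -0.41 ± 0.12. With TMM factors it was not called (adjusted p = 0.0623). The ranges overlapped through the solvent library of series 27-2, at 74.6 CPM. SEMA6C and SEMA4F were the remaining calls upward, with 0.84 ± 0.21 and 0.29 ± 0.09.

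SEMA6B and SEMA5A, both transmembrane, were scarce. SEMA6B had 1.802, 1.81, 2.43 and 2.83 CPM in WT solvent and 0.979, 1.01, 1.14 and 1.17 CPM at 72 h. All 4 solvent libraries lay above the treated ones. Its change of -1.01 ± 0.38 (adjusted p = 0.0262) was not called with TMM factors (adjusted p = 0.0709), without the series 27-2 (adjusted p = 0.068), or in edgeR or DESeq2, nor without WT solvent 27-1 or 27-2 or WT 72 h 2-1 or 2-2 (-0.98 to -0.90, adjusted p up to 0.0662). SEMA5A fell in mut cells, from 1.14, 0.854, 0.926 and 1.29 CPM in solvent to 0.189, 0.386, 0.427 and 0.224 CPM at 72 h. No treated library reached the lowest solvent library, and the change was -1.82 ± 0.40 (adjusted p = 0.00127). It was called lower in mut cells at 24 h too, with 0.26, 0.43, 0.34 and 0.33 CPM, and this call was kept in 15 of 15 refits. In WT cells SEMA5A was called at 24 h, with -1.55 ± 0.39 (adjusted p = 0.00143), and at 72 h its value was -0.80 ± 0.34 (adjusted p = 0.0519).

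Of the 6 class 3 semaphorins, SEMA3A fell in WT cells from a higher start than in mut cells. SEMA3A (ENSG00000075213, chromosome 7, 83955777 to 84492724), a secreted repellent ligand of neuropilin 1, had 21.1, 16.4, 15.5 and 18.5 CPM in WT solvent and 9.93, 10.2, 9.03 and 8.37 CPM at 72 h. Mut cells had 2.98, 2.92, 2.904 and 2.59 CPM in solvent and 2.402, 2.22, 3.09 and 2.26 CPM at 72 h. The WT groups did not overlap, and every mut library lay below every WT library. The change was -0.93 ± 0.15 in WT (adjusted p = 9.88e-06) and -0.21 ± 0.27 in mut (adjusted p = 0.614). Mut solvent cells differed from WT by -2.64 ± 0.21 (adjusted p = 1e-09), and the interaction at 72 h was 0.71 ± 0.31 (adjusted p = 0.134, or 0.0274 with the replicate block).

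SEMA3B and SEMA3G, secreted semaphorins too, stood on opposite sides of the genotype comparison. SEMA3B had 5.99, 5.94, 5.26 and 10.2 CPM in WT and 2.35, 1.999, 2.67 and 1.55 CPM in mut solvent libraries. At 72 h it had 7.55, 8.46, 5.82 and 9.93 CPM in WT and 4.77, 4.298, 5.84 and 4.36 CPM in mut libraries. The genotypes did not overlap in solvent, the series 27-2 was the highest, and at 72 h the highest mut library just passed the lowest WT library. SEMA3B rose in mut cells by 1.18 ± 0.29 (adjusted p = 0.00392) and had 0.26 ± 0.21 in WT (adjusted p = 0.316). The interaction of 0.92 ± 0.36 was not called (adjusted p = 0.0951), but was with the replicate block (adjusted p = 0.00145) and without the series 27-2 (adjusted p = 0.0188). Exons of SEMA3B overlap the antisense gene SEMA3B-AS1, and reads of the shared stretch cannot be told apart without strand.

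SEMA3G was rare in both genotypes. It had 0.923, 0.403, 0.252 and 0.301 CPM in WT and 1.52, 1.303, 2.95 and 2.57 CPM in mut solvent libraries. At 72 h it had 0.186, 0.137, 0.0879 and 0.364 CPM in WT and 0.454, 1.07, 1.28 and 0.76 CPM in mut libraries. Mut libraries lay above WT libraries in solvent and at 72 h, and WT solvent 2-1 stood above its group. The genotype difference was 2.24 ± 0.43 in solvent (adjusted p = 0.000603). SEMA3G fell in mut cells at 72 h, with -1.27 ± 0.34 (adjusted p = 0.00623), and in WT cells at 24 h, with -1.89 ± 0.70 (adjusted p = 0.0246). In mut cells it was called lower at 24 h too, with 0.35, 0.457, 0.844 and 0.796 CPM. This call was kept in 15 of 15 refits. The mut call at 72 h was lost with clone sums (adjusted p = 0.0638) and in the edgeR quasi-likelihood test (adjusted p = 0.0647). The WT call was lost with clone sums (adjusted p = 0.095) and without WT solvent 2-1, WT 24 h 2-2 or WT 24 h 27-1 (adjusted p up to 0.118).

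**Figure D2:**
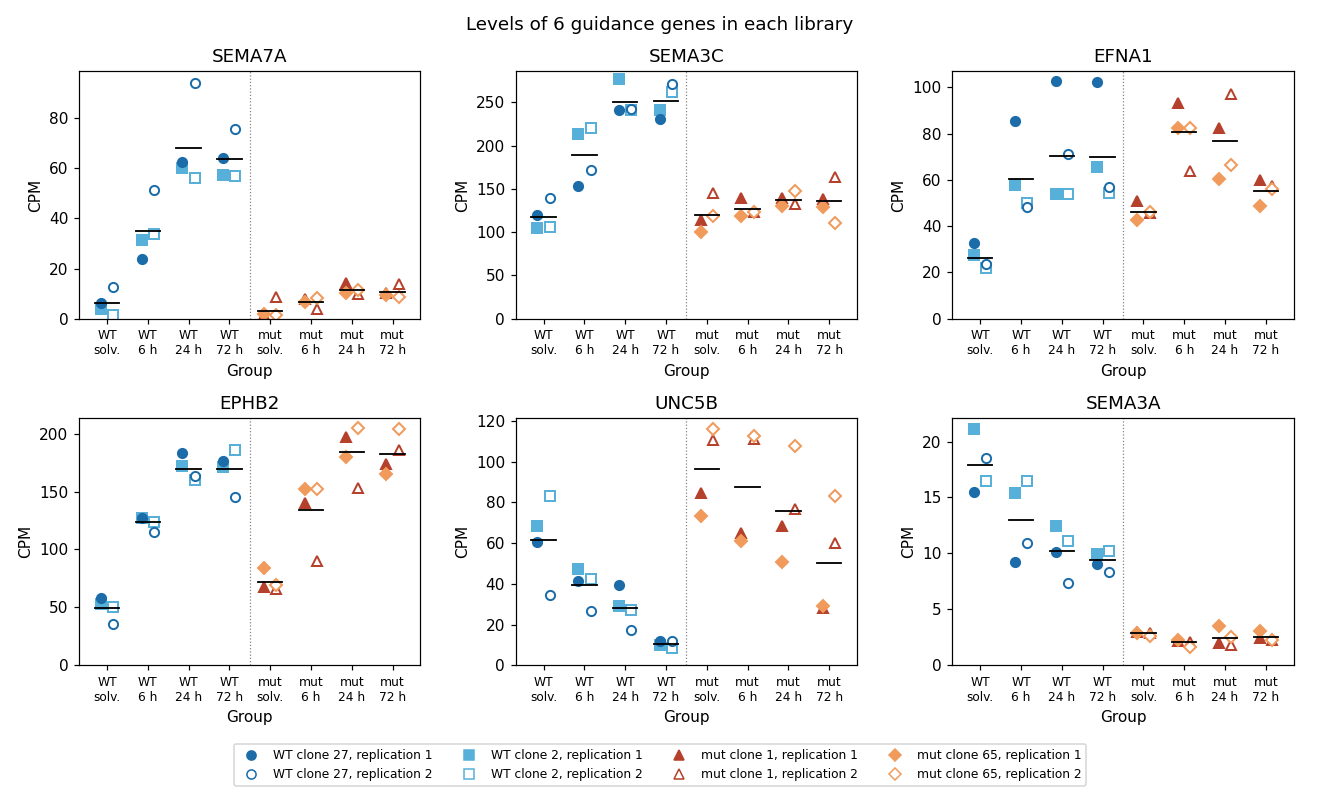
Levels in CPM (linear axes from 0) of SEMA7A, SEMA3C, EFNA1, EPHB2, UNC5B and SEMA3A in the 32 libraries, with 1 symbol per clone, filled for replication 1 and open for replication 2, and bars at the group means. SEMA3C in WT cells at 24 and 72 h lay above every mut library, SEMA3A in mut cells lay below every WT library, and UNC5B in mut cells was higher in each replication 2 library than in both replication 1 libraries of its group.

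Of the 9 plexins, the semaphorin receptors, 2 rose and 2 fell in WT cells at 72 h (44.4%, against 52.2% of all genes), and 0 were called in mut cells at 72 h (against 24.1% of all genes), where 4 had an unadjusted limma-voom p under 0.05. At 24 h 3 were called in each genotype, all higher (33.3%, against 52.1% of all genes in WT and 23.8% in mut). PLXNA2 and PLXNA3 were called in both, and PLXNB3 in mut alone. The mut call of PLXNA3 at 24 h was lost with clone sums (adjusted p = 0.0662) and without mut solvent 1-2 or mut 24 h 1-1 (adjusted p up to 0.0614). PLXNA3, a plexin A receptor, had 68.5, 56.8, 55.2 and 55.9 CPM in WT solvent and 94.7, 103, 82.97 and 87.4 CPM at 72 h. Levels in mut cells were 58.05, 54.1, 68.5 and 61 CPM in solvent and 68.3, 68.1, 72.4 and 65.1 CPM at 72 h. All WT libraries at 72 h lay above all others shown, and the mut groups overlapped. The change was 0.64 ± 0.09 in WT (adjusted p = 6.37e-07) and 0.18 ± 0.09 in mut (adjusted p = 0.126), and the interaction was -0.45 ± 0.12 (adjusted p = 0.0149). At 24 h the interaction was -0.41 ± 0.12 (adjusted p = 0.0329), and it was lost without the series 27-2 (adjusted p = 0.108) or 1-2 (adjusted p = 0.0689), without WT solvent 2-2, 27-1 or 27-2, WT 24 h 27-2, mut solvent 65-1 or 65-2, or mut 24 h 1-2 or 65-1 (-0.40 to -0.35, adjusted p up to 0.0837), and with clone sums as was the one at 72 h (adjusted p = 0.16 and 0.0952). Exons of PLXNA3 overlap LAGE3.

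PLXNA2, a plexin for semaphorins of class 3 and class 6, had 183 to 203 CPM in WT solvent and 235 to 329 CPM at 72 h, without overlap, and its called change was 0.86 ± 0.11 at 24 h and 0.52 ± 0.11 at 72 h. PLXNB1, the plexin that binds SEMA4D, had 182 to 259.9 CPM in WT solvent and 153 to 193 CPM at 72 h, which overlapped, and fell, with -0.40 ± 0.09 (adjusted p = 0.00032). PLXND1, the plexin that binds SEMA3E, fell in WT too, with -0.68 ± 0.25 (adjusted p = 0.0271), and was not called with TMM factors (adjusted p = 0.104) or clone sums (adjusted p = 0.141). The neuropilins went opposite ways in WT cells. NRP1 rose, and NRP2, the partner of SEMA3C and SEMA3F, fell from 54.4 ± 7.97 to 37.3 ± 7.55 CPM (-0.54 ± 0.13, limma-voom adjusted p = 0.000655).

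NRP1 rose in mut cells from a lower start. It had 93.9, 75.9, 79.6 and 127 CPM in WT solvent and 109.9, 136, 109.6 and 148 CPM at 72 h. The mut libraries held 29.96, 40.8, 31.1 and 31.96 CPM in solvent and 65.2, 88.2, 59.6 and 59.2 CPM at 72 h. The mut groups did not overlap, the WT groups did, and every mut library stayed below every WT library of the same treatment. The change at 72 h was 0.44 ± 0.18 in WT (adjusted p = 0.0398) and 1.02 ± 0.20 in mut (adjusted p = 0.000321). The WT call at 72 h was lost without WT solvent 2-1, WT solvent 2-2, WT solvent 27-1, WT 72 h 2-2 or WT 72 h 27-2 (adjusted p up to 0.135). The interaction was 0.58 ± 0.27 (adjusted p = 0.153, or 0.0202 with the replicate block).

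Among ephrins and Eph receptors, EPHB2 and EFNA1 rose at the first time point in both genotypes. EPHB2 (ENSG00000133216, chromosome 1, 22710839 to 22921500), a receptor tyrosine kinase for B-type ephrins, had 53.3, 50.02, 58.3 and 35.2 CPM in WT solvent and 171, 186, 176 and 145 CPM at 72 h. In mut libraries the gene had 67.3, 65.9, 84.4 and 69.7 CPM in solvent and 173, 186, 165 and 204 CPM at 72 h. Treated and solvent libraries did not overlap in either genotype, and the lowest solvent library was WT 27-2. EPHB2 rose by 1.34 ± 0.14 at 6 h and 1.80 ± 0.14 at 72 h in WT (adjusted p = 2.31e-07 and 8.13e-11), and by 0.88 ± 0.14 and 1.35 ± 0.14 in mut (adjusted p = 0.000241 and 3.8e-08). At 6 h the mut library 1-2 had 90.5 CPM, below the other 3 mut libraries at 140, 153 and 153 CPM, and without its series the change was 1.01. The interaction at 72 h was -0.45 ± 0.20 (adjusted p = 0.132), and its adjusted p was 0.0311 with the replicate block and 0.048 without the series 1-2.

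EFNA1 (ENSG00000169242, chromosome 1, 155127876 to 155134899), a membrane-anchored ligand of EphA receptors, rose in both genotypes at 6 and 24 h, and its changes at 72 h differed. WT solvent libraries had 27.4, 21.9, 32.8 and 23.7 CPM, those at 6 h had 57.6, 49.97, 85.4 and 48.5 CPM and those at 72 h had 65.6, 54.5, 102 and 56.7 CPM. Mut solvent libraries had 50.96, 45.5, 42.6 and 46.03 CPM, followed by 93.5, 63.9, 82.5 and 82.2 CPM at 6 h and 59.8, 57.2, 48.8 and 55.9 CPM at 72 h. Solvent and 6 h libraries did not overlap in either genotype, the series 27-1 was the highest in each WT group, and at 72 h each mut library exceeded its own solvent library. The change at 6 h was 1.15 ± 0.22 in WT and 0.79 ± 0.20 in mut (adjusted p = 0.000591 and 0.0172). At 72 h it was 1.36 ± 0.22 in WT and 0.26 ± 0.21 in mut (adjusted p = 1.04e-05 and 0.38). The interaction at 72 h was -1.10 ± 0.30 (adjusted p = 0.017), and with clone sums it was not called (adjusted p = 0.0694). At 24 h it was -0.67 ± 0.30 (adjusted p = 0.165, or 0.00426 with the replicate block). The mut call at 6 h was lost with clone sums (adjusted p = 0.089) and without mut 6 h 65-1 or mut 6 h 65-2 (adjusted p up to 0.0662), and that at 24 h without the series 1-2 (adjusted p = 0.0826).

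Of the other ephrins, EFNB2, a transmembrane ligand of EPHB4, rose from 152 ± 20.1 to 191 ± 5.63 CPM in WT and from 92.1 ± 5.401 to 147 ± 21.9 CPM in mut (SD, n = 4), which is 0.33 ± 0.09 (limma-voom adjusted p = 0.00342) and 0.66 ± 0.09 (adjusted p = 5.03e-06). The interaction at 72 h called 0 of the 3 ephrin-B genes, EFNB2 among them, and 1 of the 3 had an unadjusted limma-voom p under 0.05. EFNA4, a ligand of EphA receptors, rose by 0.38 ± 0.10 in WT and 0.30 ± 0.10 in mut, the latter not called with clone sums (adjusted p = 0.113). EFNB1 had 152, 143, 141 and 135 CPM in WT solvent and 118, 112, 131 and 125 CPM at 24 h. Mut cells held 130.4, 129, 127 and 136 CPM in solvent and 128, 151, 133 and 139.6 CPM at 24 h. Treated WT libraries lay below the WT solvent libraries, and the mut groups overlapped. The WT change at 24 h was -0.23 ± 0.07 (adjusted p = 0.00633) and the interaction 0.31 ± 0.10 (adjusted p = 0.0452). With TMM factors neither was called (adjusted p = 0.534 and 0.187), and the interaction was lost in 13 of 16 fits that left out 1 library, all but those without WT solvent 27-2, WT 24 h 27-1 or mut 24 h 1-1, with 0.27 to 0.33 (adjusted p up to 0.11), and without the series 1-2 (adjusted p = 0.177).

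Of 7 EphA receptors tested, 2 rose and 1 fell in WT cells at 72 h (42.9%, against 52.2% of all genes) and 0 were called in mut (against 24.1%), where 2 had an unadjusted limma-voom p under 0.05, and the test of the difference called none of them at any time. EPHA1 had 25.7, 27.4, 25.6 and 18.8 CPM in WT solvent and 13.8, 13.6, 14.9 and 9.91 CPM at 72 h. In mut cells it had 25.7, 22.9, 21.9 and 27.2 CPM in solvent and 15.1, 18.4, 18.8 and 22.8 CPM at 72 h. The WT groups did not overlap, the mut groups touched at library 65-2, and 27-2 was the lowest WT library of each group. EPHA1 fell, with a log2 change of -0.92 ± 0.16 in WT (adjusted p = 3.62e-05) and had -0.40 ± 0.15 in mut (adjusted p = 0.0514, or 0.000414 with the replicate block). Its interaction of 0.52 ± 0.22 (adjusted p = 0.129) was called with the replicate block (adjusted p = 0.00298) and without the series 27-2 (adjusted p = 0.0421). Exons of EPHA1 overlap ZYX, which encodes the adhesion protein zyxin. EPHA4, which binds ephrins of both types, rose by 0.88 ± 0.22 in WT (adjusted p = 0.00153), with 2.39 to 3.27 CPM in solvent and 4.34 to 6.28 CPM at 72 h, without overlap, and had -0.03 ± 0.24 in mut. Its interaction was -0.91 ± 0.33 (adjusted p = 0.0659, or 0.0239 with the replicate block).

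SLIT3 and NTN1 were the ligands of the other families that rose most. SLIT3 had 0.811, 0.705, 0.944 and 3.21 CPM in WT solvent and 6.25, 11.2, 6.13 and 13.6 CPM at 72 h. Mut cells had 0.212, 1.71, 0.0842 and 0.121 CPM in solvent and 1.74, 2.24, 1.61 and 1.16 CPM at 72 h. The WT groups did not overlap, 27-2 was the highest WT solvent library, and mut solvent 1-2 stood at the level of the treated mut libraries. The change was 2.95 ± 0.50 in WT (adjusted p = 1.72e-05) and 2.72 ± 0.89 in mut (adjusted p = 0.0255). Without the series 1-2 the mut change was 3.43 and not called (adjusted p = 0.0531), and the call was lost as well without mut solvent 1-1, mut solvent 65-1, mut solvent 65-2 or mut 72 h 1-2 (adjusted p up to 0.0847). The interaction was -0.23 ± 1.02 (adjusted p = 0.915). SLIT2, the other SLIT with a row, was called lower in WT at 24 h (-0.94 ± 0.21) and had -0.46 ± 0.20 at 72 h.

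NTN1, which encodes netrin 1, had 3.69, 2.87, 2.83 and 3.76 CPM in WT solvent and 8.16, 7.998, 6.77 and 5.52 CPM at 72 h. Levels in mut cells were 1.86, 1.53, 2.02 and 1.73 CPM in solvent and 3.03, 1.98, 3.23 and 2.73 CPM at 72 h. The WT groups did not overlap and every mut solvent library lay below every WT solvent library. NTN1 rose by 1.10 ± 0.21 in WT (adjusted p = 6.17e-05) and had 0.58 ± 0.27 in mut (adjusted p = 0.12, or 0.0124 with the replicate block). The interaction was -0.52 ± 0.34 (adjusted p = 0.35). NTN4, a laminin-binding netrin of basement membranes, rose by 0.82 ± 0.22 in WT (adjusted p = 0.00253) and had 0.37 ± 0.23 in mut.

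The netrin receptors UNC5B and UNC5A fell in both genotypes. UNC5B (ENSG00000107731, chromosome 10, 71212570 to 71302864) had 68.5, 83.4, 60.6 and 34.7 CPM in WT solvent and 9.95, 8.59, 11.8 and 11.97 CPM at 72 h. The mut libraries held 84.7, 111, 73.6 and 116 CPM in solvent and 28.2, 60.3, 29.1 and 83.4 CPM at 72 h. The WT groups did not overlap. The replication 2 libraries of mut cells lay above both replication 1 libraries in each of the 4 treatments, and mut 72 h 65-2 was within the range of the mut solvent libraries. The change at 72 h was -2.48 ± 0.41 in WT (adjusted p = 1.23e-05) and -1.07 ± 0.30 in mut (adjusted p = 0.00971), and the mut value was -0.83 and not called without mut 72 h 1-1 (adjusted p = 0.0571). The interaction was 1.41 ± 0.51 (adjusted p = 0.0659), and it was called with the replicate block (adjusted p = 0.000163), without the series 27-2 (adjusted p = 0.0252) and with clone sums (adjusted p = 0.0159). At 72 h mut exceeded WT by 2.10 ± 0.42 (adjusted p = 0.000206), and this held in each replication, with mut libraries at 28.2 and 29.1 CPM against 9.95 and 11.8 in replication 1, and 60.3 and 83.4 against 8.59 and 11.97 in replication 2.

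UNC5A had 1.24, 2.22, 1.09 and 0.953 CPM in WT solvent and 0.676, 0.206, 0.747 and 0.546 CPM at 72 h. In mut libraries the gene had 1.52, 1.57, 3.01 and 2.55 CPM in solvent and 0.814, 0.441, 1.42 and 1.16 CPM at 72 h. Solvent and treated libraries did not overlap in either genotype, at levels near 1 CPM. The log2 change was -1.37 ± 0.43 in WT (adjusted p = 0.00899) and -1.29 ± 0.33 in mut (adjusted p = 0.00484), and the WT value was -0.98 and not called without WT 72 h 2-2 (adjusted p = 0.0561). Exons of UNC5A overlap HK3, which encodes a hexokinase. Calls among genes under 1 CPM in every group were EPHA3, EFNA2 and UNC5D in WT cells at 72 h, and EFNA2, UNC5D, UNC5C and ROBO2 in mut cells at 72 h.

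In mut cells 17 guidance genes were called at 72 h. Of the 17, 12 were higher and 5 lower, against 24.1%, 7.81% and 16.3% of all genes (32 with the replicate block, background 33.9%). At 24 h 12 were called, 10 higher and 2 lower, against 23.8%, 6.75% and 17.1% (22 with the replicate block, background 35.0%). At 6 h EPHB2, EFNA1 and PLXNB2 were called, all higher, against 7.00%, 2.06% and 4.94% (8 with the replicate block, background 16.5%). The 3 genes called in mut at 6 h, 11 of 12 at 24 h and 11 of 17 at 72 h were called in WT too, each in the same direction, which is 91.7% at 24 h and 64.7% at 72 h. Of all genes called in mut, 72.6%, 89.5% and 80.1% were called in WT in the same direction at 6, 24 and 72 h. The shared genes were 35.5% and 34.4% of the guidance genes called in WT at 24 and 72 h, against 41.0% and 37.4% over all genes, counted in either direction. Of the genes called in WT alone, 20 at 24 h and 21 at 72 h, the test of the difference itself called 2 and 4, against 684 of 4573 and 1176 of 4861 over all genes called in WT alone. Of the 6 called in mut alone at 72 h (EFNB3, SEMA3B, SEMA3G, ROBO2, UNC5C and SEMA5A) it called ROBO2.

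**Figure D3:**
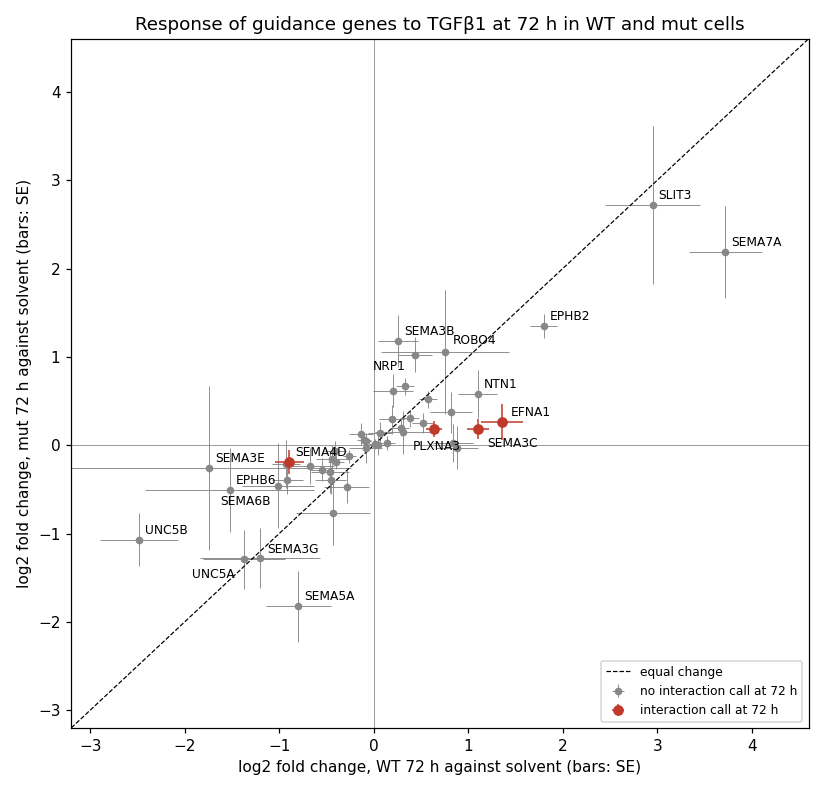
Log2 fold changes at 72 h against solvent in WT (horizontal) and mut cells (vertical) for the 49 guidance genes with a mean of at least 1 CPM in some group, with SE bars and the line of equal change. Red points had an interaction call at 72 h (EFNA1, SEMA3C, PLXNA3 and SEMA4D), and all 4 lie closer to 0 on the mut axis than on the WT axis; ROBO2, under 1 CPM, is not drawn.

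The interaction asked whether the TGFβ1 change differed between genotypes. At 6 h 0 of 61 guidance genes were called by limma-voom, edgeR or DESeq2, with 2 at an unadjusted limma-voom p under 0.05 and a background of 0.0740%. At 24 h 3 were called, against 9.65% of all genes, with EFNB1 higher (background 7.72%) and SEMA3C and PLXNA3 lower (background 1.93%). At 72 h 5 were called, against 12.3%, with SEMA4D and ROBO2 higher (9.40%) and EFNA1, SEMA3C and PLXNA3 lower (2.92%). With the replicate block these counts were 12 (background 18.7%) and 21 (background 23.5%). ROBO2, a SLIT receptor, had 0.766, 0.353, 1.01 and 0.652 CPM in WT solvent and 0.233, 0.594, 0.264 and 0.445 CPM at 72 h. Mut cells held 0.508, 0.539, 0.421 and 0.161 CPM in solvent and 1.06, 0.808, 1.19 and 0.715 CPM at 72 h. All of these values were near or under 1 CPM, and the mut groups did not overlap. Its interaction was 2.17 ± 0.58 (adjusted p = 0.0134), and it was called with clone sums (adjusted p = 0.0352) and without the series 27-2 or 1-2 as well (adjusted p = 0.0175 and 0.0189).

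Without TGFβ1 the genotypes differed in 15 guidance genes, 5 higher and 10 lower in mut, against 12.7%, 6.38% and 6.32% of all genes. The ligands SEMA3A and SEMA3B and the receptor NRP1 were lower in mut, and SEMA3G was higher, as given above. NRP2 was lower in mut too, with 31.2 to 36.9 CPM against 46.3 to 65.2 CPM in WT, and so was PLXNB3, with 5.18 to 6.06 CPM against 6.67 to 10.7 CPM. Exons of PLXNB3 share bases with those of SRPK3 on the same strand. For NRP1 the difference was -1.48 ± 0.20 (adjusted p = 5.18e-06), and for SEMA3B -1.64 ± 0.29 (adjusted p = 0.000204). EFNB2 was lower in mut, with -0.72 ± 0.09 (adjusted p = 3.69e-06), with 86.6 to 98.3 CPM in mut and 134 to 179 CPM in WT. ROBO1 and its ligand SLIT2 were both lower, ROBO1 with 33.2 to 42.5 CPM against 54.7 to 58.4 CPM (-0.57 ± 0.11, adjusted p = 0.000566) and SLIT2 with 12.2 to 17.6 CPM against 21.6 to 32.6 CPM (-0.85 ± 0.21, adjusted p = 0.00671). None of these ranges overlapped. Of 3 endothelial markers in the table the summed level was 1.64 to 4.85 CPM in mut and 0.811 to 1.91 CPM in WT solvent libraries, with VWF and CLDN5 under 1 CPM throughout, and that of 5 blood cell markers was 30.2 to 34.7 against 23.7 to 32.6 CPM, with PTPRC and CD3E at most 0.0498 CPM.

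EFNA5, PLXNC1, EFNA1 and EPHB2 were higher in mut solvent cells. EFNA5, a membrane-anchored ephrin, had 29.95, 32.4, 32.3 and 36.2 CPM in WT and 46.4, 44.8, 38.4 and 43.6 CPM in mut solvent libraries. The groups did not overlap, and the difference was 0.41 ± 0.07 (adjusted p = 0.000113). EFNA5 was called higher in mut at every time, with 0.57 ± 0.07 at 72 h (adjusted p = 2.04e-07), and in no TGFβ1 comparison. PLXNC1, the receptor of SEMA7A, had 2.52, 2.897, 2.097 and 3.04 CPM in WT and 4.25, 4.72, 4.08 and 6.29 CPM in mut solvent libraries, without overlap (0.88 ± 0.20, adjusted p = 0.00391). At 72 h the difference was 0.70 ± 0.22 (adjusted p = 0.0132, or 0.0544 without the series 1-2). Exons of PLXNC1 overlap CEP83. EFNA1 and EPHB2 differed by 0.81 ± 0.23 and 0.56 ± 0.15 (adjusted p = 0.0167 and 0.00998), and both calls were lost without the series 27-2 (adjusted p = 0.0503 and 0.0616). The lower values of NTN1, -0.87 ± 0.27, and SEMA6B, -1.21 ± 0.39, were not called without 27-2 either (adjusted p = 0.0691 and 0.0743), nor was SEMA6B without 1-2 (adjusted p = 0.0707). Single solvent libraries decided some of these calls. EFNA1 was not called without WT 2-2 (0.73, adjusted p = 0.0521). SEMA6B was not called without WT 27-1, mut 1-2 or mut 65-2 (adjusted p up to 0.206, with -0.79 without mut 65-2). NTN1 was not called without WT 2-1 or mut 1-1, 1-2 or 65-2 (-0.89 to -0.80, adjusted p up to 0.081). With clone sums EFNA1, SEMA6B and NTN1 were not called (adjusted p = 0.0609, 0.147 and 0.0955). SEMA6B was not called in the edgeR quasi-likelihood test (adjusted p = 0.0987) or the DESeq2 Wald test (adjusted p = 0.0693) either.

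**Figure D4:**
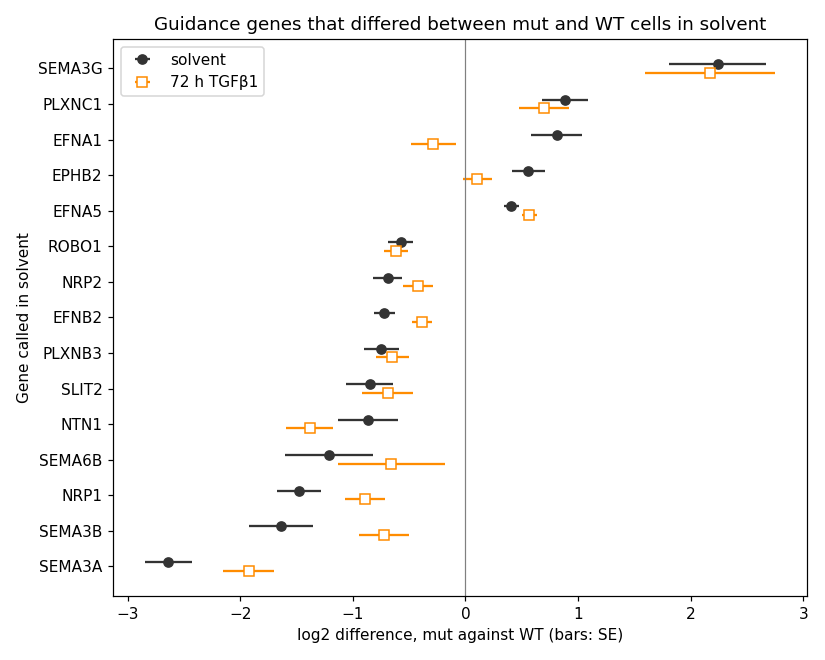
Log2 differences of mut against WT cells with SE bars, in solvent (filled circles) and after 72 h of TGFβ1 (open squares), for the 15 guidance genes called in solvent. SEMA3A lies furthest left and SEMA3G furthest right in solvent, and EFNA1 lies right of 0 in solvent and left of 0 at 72 h, where it was not called.

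The genotypes were compared at each time of TGFβ1 as well. At 6 h 22 were called, 9 higher and 13 lower in mut, against 21.4%, 11.3% and 10.0%. At 24 h 28 were called, 10 higher and 18 lower, against 36.9%, 24.7% and 12.2%, and at 72 h 30 were called, 13 higher and 17 lower, against 39.2%, 26.0% and 13.2%. SEMA7A had -1.05 ± 0.58 in solvent (adjusted p = 0.254) and -2.58 ± 0.29 at 72 h (adjusted p = 8.93e-08), and SLIT3 had -2.16 ± 0.93 and -2.39 ± 0.42 (adjusted p = 0.131 and 5.04e-05). EPHB6, an Eph receptor without kinase activity, was higher in mut at 72 h, with 2.37 to 11.7 CPM against 0.526 to 1.56 CPM (2.34 ± 0.83, adjusted p = 0.0251), and was not called without the series 27-2 (adjusted p = 0.0541) or with clone sums (adjusted p = 0.105). The mut clones differed in EPHB6 at 72 h, with 2.48 and 2.37 CPM in clone 1 and 7.33 and 11.7 CPM in clone 65. PLXND1 and PLXNB1 were higher by 1.00 ± 0.24 and 0.37 ± 0.09, and EPHA4 was lower, with -0.93 ± 0.22 (adjusted p = 0.00107). For PLXND1 clone 1 had 16.3 and 14.2 CPM and clone 65 had 26.4 and 19.6 CPM at 72 h, against 7.62 to 11.2 CPM in WT.

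Genes of these pathways outside the name rule were read from the same fit. Of 17 further ligands, receptors and partners, 12 were tested, and 4 rose and 3 fell in WT cells at 72 h (58.3%, against 52.2% of all genes), while 1 rose and 3 fell in mut cells (33.3%, against 24.1%). FLRT2, a membrane protein that binds UNC5 receptors, went from 61.8 ± 17.8 to 152 ± 29.9 CPM in WT and from 48.03 ± 12.7 to 63.4 ± 10.9 CPM in mut (SD, n = 4), with a limma-voom interaction of -0.89 ± 0.28 (adjusted p = 0.0341). KDR, a receptor of vascular endothelial growth factor that pairs with neuropilins, fell from 10.97 ± 4.04 to 3.27 ± 0.3405 CPM in WT and from 23.9 ± 2.496 to 17.5 ± 3.68 CPM in mut, with a limma-voom interaction of 1.18 ± 0.34 (adjusted p = 0.0214). Of 32 signalling proteins below the receptors, 30 were tested, and 10 rose and 8 fell in WT cells at 72 h (18 of 30, against 52.2% of all genes), and 7 rose and 4 fell in mut cells (36.7%, against 24.1%). By direction, all genes gave 13.9% higher and 38.4% lower in WT cells and 7.81% and 16.3% in mut cells. MICAL1, which acts downstream of plexins on actin, rose by 1.25 ± 0.11 in WT and 0.68 ± 0.12 in mut (limma-voom interaction -0.57 ± 0.16, adjusted p = 0.019). SRGAP3, a GTPase-activating protein of the SLIT-ROBO pathway, fell, with a log2 change of -1.50 ± 0.20 in WT and -0.60 ± 0.16 in mut (limma-voom interaction 0.89 ± 0.26, adjusted p = 0.0205).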

How the data were processed

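RNA of 32 MCF10A cultures was sequenced by the authors (TruSeq RNA v2 libraries, NovaSeq), trimmed with Trimmomatic, and aligned and counted per gene with STAR on Ensembl GRCh38. Tool versions, the annotation release and the strand setting are not given in the sources used here. The deposited values are whole-number counts per gene, with 1 column for each library, all of which were used. Ensembl ids were named with GENCODE 44, which held 17763 of 17788. CPM is the count divided by the library total (39702412 to 54651906), and RPKM divides this by the summed exon length of the gene. Genes passing edgeR's filterByExpr (minimum count 10, minimum total 15) were fitted with limma-voom (limma 3.58.1, R 4.3.3, prior count 0.5) to the 8 group means, with library totals as the only scaling, and 13 comparisons were drawn. Adjusted p-values are Benjamini-Hochberg values over 14865 genes, and genes under 0.05 are called. Limma-voom in place of a negative binomial model follows the methods of the study. Libraries of a group differed by more than counting noise (smallest chi-square per degree of freedom 11.5), so that none was a copy of another.

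Deviations from the group means of libraries with the same clone and replication correlated with a mean of 0.303 (lowest 0.0283), against 0.0184 for the same clone with the other replication, and the labels give these libraries the same clone and replication number. The replicate block therefore uses the series. Alternatives were TMM factors, edgeR 4.0.16, DESeq2 1.42.0, no low-count filter, a minimum fold, the replicate block, clone sums, and leaving out each library or the series 27-2 or 1-2. The scripts were tested on simulated counts. Genes given with values in every library are those with a mean of at least 1 CPM in a compared group and either an interaction call at 24 or 72 h or a place among the 5 largest called rises or falls in WT at 72 h, in mut at 72 h or in mut against WT solvent cells. Genes named beside these, ROBO2 among them, were chosen after their values were seen. The guidance genes, the pathway lists and the marker lists were chosen with earlier results of these data known. Promoters are those of RefSeq (GRCh38.p14).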

Additional observations from a re-analysis of the deposited data

Results flagged for a closer look

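In 8 of 160 groups of 4 libraries, over the genes given with values in every library, 1 library stood apart by Dixon's test, and chance gives about 1 group in 20. EFNA5 had 31.6 CPM in WT 6 h 2-1 against 29.6 to 29.9 CPM in the other 3 libraries. EFNA5 had 26.4 CPM in WT 72 h 27-1 against 31.5 to 32.1 CPM. EPHA1 had 24.1 CPM in mut 24 h 65-2 against 19.7 to 20.3 CPM. PLXNA3 had 68.5 CPM in WT solvent 2-1 against 55.2 to 56.8 CPM. SEMA3C had 277 CPM in WT 24 h 2-1 against 241 to 242 CPM. The other 3 were libraries of the series 1-2. EPHB2 had 90.5 CPM in mut 6 h 1-2 against 140.0 to 153 CPM, SEMA3B had 2.44 CPM in mut 6 h 1-2 against 2.76 to 2.79 CPM, and SEMA7A had 8.51 CPM in mut solvent 1-2 against 1.45 to 1.73 CPM.

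The TGFβ1 change differed between mut and WT cells in the limma-voom interaction for 3 guidance genes at 24 h, with log2 values of -0.88 for SEMA3C, 0.31 for EFNB1 and -0.41 for PLXNA3. At 72 h it differed for 5, with -1.10 for EFNA1, 2.17 for ROBO2, -0.92 for SEMA3C, 0.70 for SEMA4D and -0.45 for PLXNA3. Of 24 refits, the call at 24 h was kept in 24 for SEMA3C, 13 for PLXNA3 and 5 for EFNB1. The call at 72 h was kept in 24 for SEMA3C, 23 for EFNA1, 23 for PLXNA3 and 17 for SEMA4D. ROBO2 lay near or under 1 CPM.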

How the results depend on the processing

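The 115 called log2 changes of the genes given with values in every library kept their direction in every refit, and 80 of them stayed called in every refit. The minimum fold, which refits nothing and was applied to counts only, is not among these. The number lost was 8 with TMM factors, 11 in edgeR, 9 in DESeq2, 3 without the low-count filter, 21 with clone sums, 10 without the series 27-2 and 10 without 1-2. With the series as replicate block 0 of these calls were lost, and the counts of guidance genes rose to 19 in WT at 6 h, to 8, 22 and 32 in mut at 6, 24 and 72 h, and to 12 and 21 in the interaction at 24 and 72 h (13 for the interaction of the pathway genes outside the name rule at 72 h). The replication number as replicate block kept 51 of 51 of these calls of mut against WT. A minimum absolute log2 change of 1 left 4, 15 and 12 calls in WT and 0, 5 and 13 in mut at 6, 24 and 72 h. In mut against WT it left 5, 12, 11 and 9 in solvent and at 6, 24 and 72 h, and in the interaction 0 and 2 at 24 and 72 h. For the pathway genes outside the name rule it left 9 in WT and 3 in mut at 72 h, 4 in solvent and 2 in the interaction at 72 h. In mut at 6 h, where the reported count is 3, TMM factors, edgeR and the fit without 1-2 gave 5, DESeq2 6 and clone sums 1. Clone sums gave 18 for mut against WT at 24 h, and 1 and 3 for the interaction at 24 and 72 h. The interaction at 24 h gave 1 without 1-2, and that at 72 h gave 9 in DESeq2 and 10 without 27-2. Without 1-2 the pathway genes in mut at 72 h gave 7. The cause was not tested, except that clone sums hold fewer libraries.

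Leaving out 1 library gave 1 to 7 calls in mut at 6 h (7 without mut 6 h 1-2, 5 without 1-1, and 1 without 65-1 or 65-2), and 4 to 9 in the interaction at 72 h (9 without WT solvent 27-2). The interaction at 24 h gave 1 to 4, with 1 without WT 24 h 27-2, WT solvent 2-2 or 27-1, mut 24 h 1-2 or 65-1, or mut solvent 65-1 or 65-2. For the pathway genes outside the name rule the range was 8 to 14 in mut at 72 h (8 without mut 72 h 1-1, 9 without 1-2), 5 to 10 in solvent (5 without mut 1-1), and 3 to 10 in the interaction at 72 h (3 without WT 72 h 2-2 or 27-2 or WT solvent 2-2, 10 without mut 72 h 1-2). Genotype rests on 2 clones each, and under 1 CPM a value rests on few counts, so that calls there are the least precise.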
